A study of Mus musculus with 12 samples.

Results

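The chemokine and chemokine receptor genes described here were 10 of the 11494 genes in the authors' table, picked by name: the receptors Cxcr2, Cxcr4, Ccr1, Ccrl2 and Ccr3, and the ligands Ccl3, Ccl4, Ccl6, Cxcl2 and Cxcl10. All 10 were listed and all 10 passed the filter on low values, among 9742 genes tested. RNA was measured in mouse blood neutrophils after bone marrow transplantation (BMT), in 6 libraries of genotype LOY (loss of the Y chromosome) and 6 libraries of genotype Control. The labels give the treatment as Control for both genotypes. Per the labels, 10000 Ly6G+, CD115- and RFP+ blood cells were sorted for each library. The strain and age of the mice, the way the Y chromosome was lost, the source of RFP and any pooling of animals are not given in the sources used here. The labels do not say that each library came from its own mouse, so p-values measure the spread between these libraries, which may be technical.

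Chemokines are small secreted proteins that guide leukocytes along gradients by binding membrane-spanning receptors coupled to inhibitory G proteins. In neutrophils, Cxcr2 reads CXC ligands such as Cxcl2 and draws cells from marrow into blood and into inflamed tissue, whereas Cxcr4, the receptor of Cxcl12, holds them in marrow and rises as they age in the circulation. Neutrophils also make chemokines: Ccl3 and Ccl4 are CC chemokines that attract other leukocytes, Ccl3 binds Ccr1, Cxcl2 recruits further neutrophils, and Cxcl10 draws Cxcr3-bearing T and NK cells. In GRCm38 the receptor genes are Cxcr2 at chr1:74153989-74161246, Cxcr4 at chr1:128588199-128592293, Ccr1 at chr9:123962124-123968692, Ccr3 at chr9:124021972-124031689 and Ccrl2 at chr9:111054486-111057519. The ligand genes are Ccl6 at chr11:83587882-83593087, Ccl3 at chr11:83647844-83649355, Ccl4 at chr11:83662584-83664683, Cxcl2 at chr5:90903871-90905938 and Cxcl10 at chr5:92346638-92348889.

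Recovered reads per library numbered 17097739 to 19616066 in LOY libraries and 13743581 to 18459792 in Control libraries. The share of listed genes at 0 was 6.60% to 11.6% in LOY libraries and 9.33% to 21.7% in Control libraries, and Control 1, 2 and 12 stood apart with 20.5%, 21.7% and 17.3%. Values of the 10 genes that moved by more than 1.5 times without these 3 libraries are given with and without them. The Y-linked gene Ddx3y had 0 to 366 normalized reads in LOY libraries and 650 to 1348 in Control libraries, with LOY 4 at 366 and no other LOY library above 31.96. Of the sorted cell's own markers, all 7 neutrophil markers were listed. Their summed level was 1293235 to 1947300 normalized reads in LOY libraries and 1271767 to 2307619 in Control libraries. S100a8 and S100a9 made up most of that sum. The log2 fold change of LOY over Control was negative for 5 of the 7 and positive for 2, and 0 were called by the test below. For Ly6g, the marker of the sort, it was -0.52 ± 0.36 (SE). Without Control 1, 2 and 12 it was 0.08 ± 0.36 for Ly6g and positive for each of the 7.

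No chemokine or receptor gene among the 10 passed the test between LOY and Control libraries. limma, on log2(value + 1) of normalized reads (each library's read count divided by the authors' size factor), called 0 of the 10 at an adjusted p under 0.05, against 2 of all 9742 genes tested, or 0.0205%. At an unadjusted p under 0.05 limma, edgeR and DESeq2 each counted 1 of the 10, which was Ccl4, against 6.04%, 2.94% and 5.55% of all genes. limma's unadjusted p was under 0.05 with a lower LOY level for 1.63% of all tested genes. DESeq2 called 0 of the 10 and 0.493% of all genes at an adjusted p under 0.05, and edgeR called 0 of all 9742. By the authors' deposited table, 0 of the 10 were under 0.05 by adjusted p, against 0.493% of all genes, and 1 by unadjusted p, against 5.53%. For none of the 10 were the LOY and Control libraries fully apart, and 0.287% of all tested genes were. The log2 fold change of LOY over Control was positive for 5 and negative for 5, with a median of 0.01, and the median over all tested genes was 0.14. The width of the intervals separated the members: for Cxcr2, Cxcr4, Ccr1, Ccrl2 and Ccl6 the 95% interval lay within a 2-fold change in either direction, as it did for 30.7% of all tested genes. For Ccr3, Ccl3, Ccl4, Cxcl2 and Cxcl10 a change of 2-fold or more in at least one direction remained inside the interval.

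**Figure D1:**
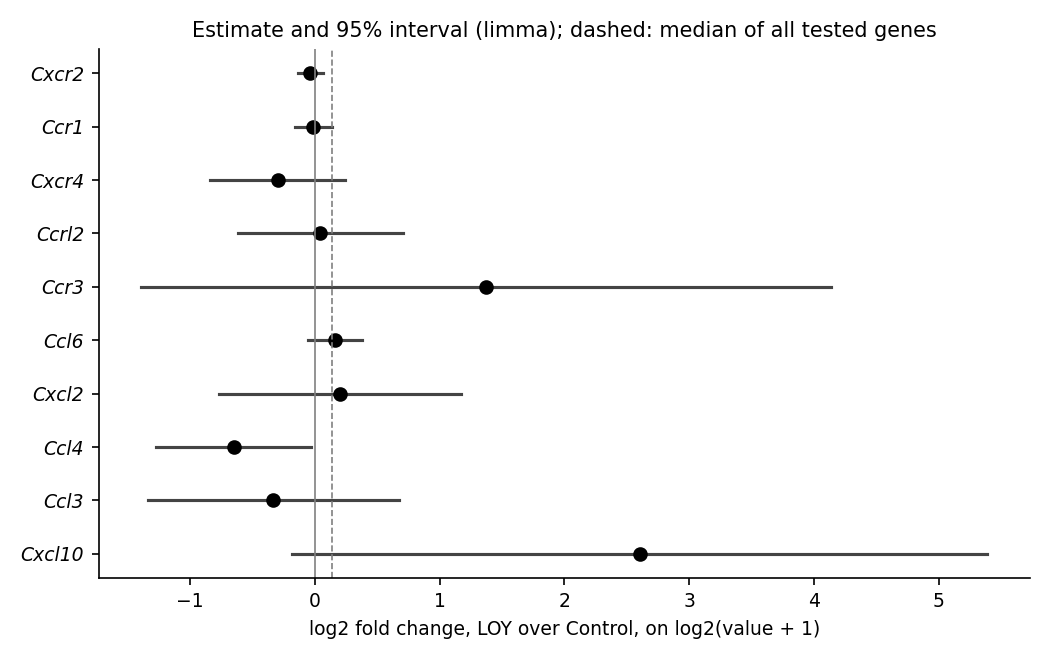
Log2 fold change of LOY over Control for each gene (point) with its 95% interval from limma (bar), 6 libraries a group. The intervals of Cxcr2 and Ccr1 are the narrowest, those of Ccr3 and Cxcl10 are the widest, and that of Ccl4 is the only one that lies below 0 throughout, at an adjusted p of 0.810.

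Cxcr2, the main chemotactic receptor of neutrophils, was abundant and nearly the same in every library. Its lowest, median and highest levels were 44295, 45049 and 51452 normalized reads in LOY libraries and 45241, 47494 and 50203 in Control libraries. The groups overlapped, with LOY 19 highest and LOY 15 lowest of all, and 4 LOY libraries lay below the lowest Control library. The means were 46338 ± 2732 in LOY and 47483 ± 1722 in Control libraries (SD, n = 6 each), a LOY over Control fold of 0.975 with a 95% interval of 0.908 to 1.05 (limma adjusted p = 0.884). The SD within groups was 0.0689 on the log2 scale, and all 91 genes with a mean level within 2-fold of that of Cxcr2 had a larger one, with a median of 0.205. Read counting alone would give a coefficient of variation of 0.439% in LOY and 0.459% in Control libraries, and the observed values were 5.90% and 3.63%.

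Ccr1, a receptor of Ccl3 and other CC chemokines, was the second most abundant receptor. It had 26669, 27760 and 29717 normalized reads in LOY libraries (lowest, median and highest) and 24671, 28028 and 33091 in Control libraries. Every LOY library lay inside the Control range. The fold of LOY over Control was 0.990 with a 95% interval of 0.894 to 1.10 (limma adjusted p = 0.970), and 95.7% of the 161 genes of like level varied more within groups. Control 1, 2 and 12 averaged 30492 ± 2284 normalized reads and Control 6, 17 and 18 averaged 26121 ± 1319 (SD, n = 3 each). Without Control 1, 2 and 12 the log2 fold change was 0.10 ± 0.06 (SE), against -0.01 ± 0.07 with them, and neither was called.

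Cxcr4, the marrow retention receptor, had 702, 1085 and 1320 normalized reads in LOY libraries and 928, 1176 and 2633 in Control libraries. Control 2 alone stood above the rest, at 2633, and the other 5 Control libraries reached 1344 at most. The means were 1074 ± 228 in LOY and 1383 ± 628 in Control libraries (SD, n = 6 each), a log2 fold change of -0.30 ± 0.25 (SE, limma adjusted p = 0.850). It was -0.10 ± 0.18 without Control 2 and 0.02 ± 0.21 without Control 1, 2 and 12. Per kilobase of exon, there were 3.90 ± 0.782 Cxcr4 reads per 100 Cxcr2 reads in LOY libraries and 4.93 ± 2.27 in Control libraries, with ranges of 2.63 to 4.86 and 3.12 to 9.44.

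Ccrl2, an atypical receptor that binds chemerin and does not signal through G proteins, had 273, 445 and 546 normalized reads in LOY libraries and 211, 451 and 625 in Control libraries. All LOY libraries fell inside the Control range. Its fold of LOY over Control was 1.03, with a 95% interval of 0.650 to 1.63 (limma adjusted p = 0.980). On the log2 scale this was 0.04 ± 0.31 (SE), and without Control 1, 2 and 12 it was 0.19 ± 0.35.

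Ccr3, the eotaxin receptor known from eosinophils, was low and split the libraries. It had 83.9, 99.99, 152, 49.96, 3.57 and 102 normalized reads in LOY 4, 5, 9, 10, 15 and 19, and 1.08, 6.41, 114, 3.66, 108 and 117 in Control 1, 2, 6, 12, 17 and 18. LOY 15 and Control 1, 2 and 12 were near 0 and the other 8 libraries had 49.96 or more. The log2 fold change was 1.37 ± 1.27 (SE, limma adjusted p = 0.855), and without Control 1, 2 and 12 it was -1.02 ± 1.02 (adjusted p = 0.962). The direction therefore changed with those 3 libraries, which are the ones with the most genes at 0. With each library's share of genes at 0 as a covariate it was -1.21. On recovered reads, edgeR gave 0.50 and DESeq2 0.49. LOY 15, with 9.31% of genes at 0, was also near 0. Of 8 eosinophil markers, Ear2 alone was listed, at 0 to 48.4 normalized reads in LOY libraries and 0 to 80.7 in Control libraries and at 0 in 7 of all 12. The other 7, among them Epx, Prg2 and Siglecf, were not among the listed genes. In bulk RNA, fewer cells of a type and less RNA per cell cannot be told apart.

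**Figure D2:**
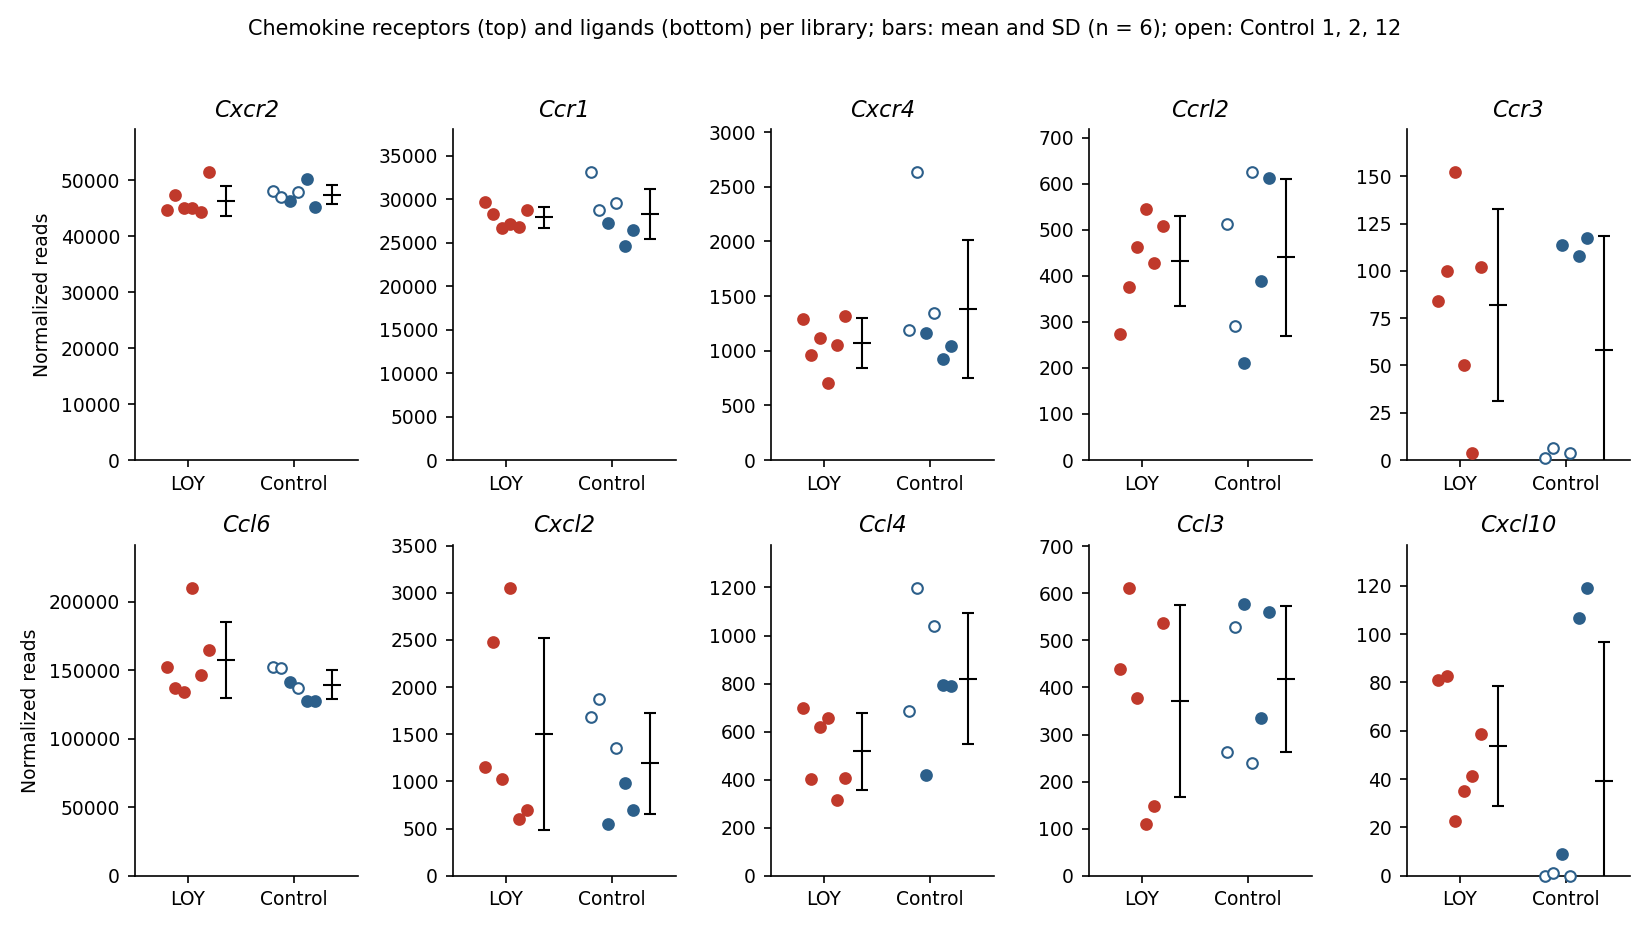
Normalized reads of each gene in each library (points), LOY left and Control right, with group means and SD (bars, n = 6 each); open points mark Control 1, 2 and 12 and each panel has its own linear axis from 0, which cuts the SD bars of Ccr3 and Cxcl10 in Control. Cxcr2 and Ccr1 points lie close together, whereas Ccr3 splits into libraries near 0 and libraries well above it. Cxcl10 spreads from 0 to 119 without such a gap.

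Ccl6, a CC chemokine of rodent myeloid cells that is a ligand of Ccr1, was by far the most abundant ligand. It had 133929, 149763 and 210185 normalized reads in LOY libraries and 127770, 139214 and 152483 in Control libraries. LOY 10 was the highest at 210185, and 3 LOY libraries lay above the highest Control library. The means were 157589 ± 28027 in LOY and 139672 ± 10921 in Control libraries (SD, n = 6 each), a fold of 1.12 with a 95% interval of 0.963 to 1.30 (limma adjusted p = 0.823). On the log2 scale this was 0.16 ± 0.10 (SE). It was 0.07 ± 0.07 without LOY 10 and 0.31 ± 0.11 with each library's share of genes at 0 as a covariate (limma unadjusted p = 0.0175, adjusted p = 1.00).

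Ccl4, a CC chemokine also known as MIP-1 beta, gave the smallest p of the 10 genes. It had 700, 402, 621, 658, 317 and 408 normalized reads in LOY 4, 5, 9, 10, 15 and 19, and 687, 1198, 419, 1040, 792 and 788 in Control 1, 2, 6, 12, 17 and 18. All 6 LOY libraries were below the Control median of 790.0, and 3 were below the lowest Control library. The means were 518 ± 161 in LOY and 821 ± 273 in Control libraries (SD, n = 6 each), a log2 fold change of -0.65 ± 0.29 (SE, limma unadjusted p = 0.0414, adjusted p = 0.810). The authors' deposited table gives -0.66, with an adjusted p of 0.754. Without Control 1, 2 and 12 the log2 fold change was -0.37 ± 0.33 (limma unadjusted p = 0.293). The difference did not pass adjustment over all genes tested in any setting tried.

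Ccl3, or MIP-1 alpha, is encoded 13228 bases from Ccl4 on chromosome 11. Ccl3 had 110, 408 and 611 normalized reads in LOY libraries and 239, 432 and 578 in Control libraries. The groups overlapped, and the lowest 2 and the highest library were all LOY. Its log2 fold change was -0.33 ± 0.46 (SE, limma adjusted p = 0.894). It was -0.04 ± 0.41 without LOY 10, -0.62 ± 0.57 without Control 1, 2 and 12 and -0.81 ± 0.57 with each library's zero share as a covariate. Per kilobase, there were 247 ± 228 Ccl4 reads per 100 Ccl3 reads in LOY libraries and 266 ± 143 in Control libraries (SD, n = 6 each). The ratio reached 693 in LOY 10 and was lowest, at 76.2, in LOY 5. Across the 12 libraries, with group means subtracted, Pearson's r between these neighbouring genes was -0.13 and Spearman's rho was -0.31 (adjusted permutation p = 0.972 and 0.724 over 45 pairs), and r was -0.28 without the 2 libraries farthest from the median.

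Cxcl2, or MIP-2, a Cxcr2 ligand that activated neutrophils release, had 597, 1093 and 3052 normalized reads in LOY libraries and 553, 1171 and 1875 in Control libraries. LOY 10 and LOY 5 were above every Control library, and the other 4 LOY libraries lay inside the Control range. Its SD within groups was 0.842 on the log2 scale, and 11.4% of the 2009 genes of like level varied more, with a median SD of 0.458. The log2 fold change was 0.20 ± 0.45 (SE, limma adjusted p = 0.937). Control 1, 2 and 12 had 1354 to 1875 normalized reads and Control 6, 17 and 18 had 553 to 988. Without Control 1, 2 and 12 the log2 fold change was 0.78 ± 0.52, and it was -0.06 without LOY 10.

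Cxcl10, or IP-10, an interferon-induced ligand of Cxcr3, was the lowest of the ligands. It had 81.0, 82.8, 22.8, 35.2, 41.1 and 58.8 normalized reads in LOY 4, 5, 9, 10, 15 and 19, and 0, 1.28, 9.06, 0, 107 and 119 in Control 1, 2, 6, 12, 17 and 18. It was detected in all 6 LOY libraries and in 4 of the 6 Control libraries, and Control 17 and 18 were above every LOY library. A count of 0 allows up to 3 reads, which covers counting error only. The log2 fold change was 2.60 ± 1.28 (SE, limma adjusted p = 0.810), and the ratio of the group means was 1.36. Values near 0 weigh more on the log scale than in the means, and on recovered reads edgeR gave a log2 fold change of 0.46 and DESeq2 0.44. Without Control 1, 2 and 12 the log2 fold change was -0.03 ± 0.88. Those libraries were set apart by their genes at 0, so this shift follows in part from the choice of libraries. Of the 2252 exon bases of Cxcl10, 133 are shared with Art3 on the other strand, and a kit without strand marks cannot assign reads there.

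**Figure D3:**
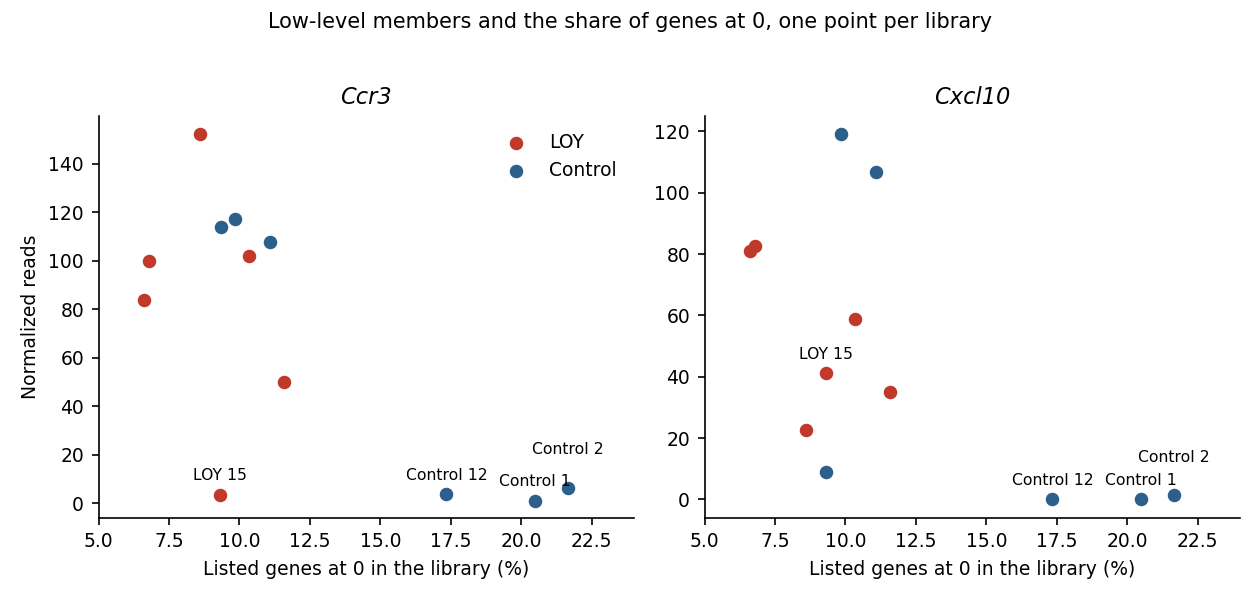
Normalized reads of Ccr3 and Cxcl10 against the percent of listed genes at 0, one point per library. Control 1, 2 and 12 lie at the right, with 17.3% to 21.7% of genes at 0 and both genes near 0. At lower shares, LOY 15 is near 0 for Ccr3 at 9.31%, and Control 6 has 9.06 normalized reads of Cxcl10 at 9.33%.

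The 250 bases before the start site are shown for ligands at the extremes of level and spread: Cxcl2, the most variable for its level, Cxcl10, the lowest, Ccl3, the neighbour of Ccl4, and Ccl6, the most abundant. The sequences are from RefSeq (GRCm38.p6) and are written 5′ to 3′ on the gene's strand. RefSeq held a window for 9 of the 10 genes and none for Ccl4, which was therefore not searched. Cxcl2 lies at chr5:90903649-90903898 on the plus strand, Cxcl10 at chr5:92348890-92349139 on the minus strand, Ccl3 at chr11:83649379-83649628 on the minus strand and Ccl6 at chr11:83593088-83593337 on the minus strand. Capitals mark matches, on either strand, to the kappa B consensus of NF-kappa B sites or to the core of the interferon-stimulated response element, written GAAA, any 2 bases, GAAA.
Cxcl2 upstream: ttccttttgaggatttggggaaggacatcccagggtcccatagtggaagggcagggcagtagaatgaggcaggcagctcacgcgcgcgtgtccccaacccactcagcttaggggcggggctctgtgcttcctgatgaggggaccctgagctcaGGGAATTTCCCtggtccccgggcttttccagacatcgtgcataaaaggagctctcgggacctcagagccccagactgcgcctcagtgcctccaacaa
Cxcl10 upstream: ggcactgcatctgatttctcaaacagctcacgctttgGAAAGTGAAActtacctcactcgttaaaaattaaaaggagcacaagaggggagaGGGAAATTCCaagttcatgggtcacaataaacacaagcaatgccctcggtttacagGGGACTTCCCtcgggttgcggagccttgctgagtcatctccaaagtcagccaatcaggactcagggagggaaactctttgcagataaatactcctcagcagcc
Ccl3 upstream: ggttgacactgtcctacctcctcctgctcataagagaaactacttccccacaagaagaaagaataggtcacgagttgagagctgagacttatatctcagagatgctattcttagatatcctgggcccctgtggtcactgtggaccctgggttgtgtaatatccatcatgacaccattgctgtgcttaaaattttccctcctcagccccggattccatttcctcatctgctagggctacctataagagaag
Ccl6 upstream: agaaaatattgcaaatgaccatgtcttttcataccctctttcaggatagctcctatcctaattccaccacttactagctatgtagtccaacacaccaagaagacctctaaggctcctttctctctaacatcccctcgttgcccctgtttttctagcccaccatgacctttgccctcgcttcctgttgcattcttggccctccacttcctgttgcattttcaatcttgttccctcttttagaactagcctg
The Cxcl2 window held a kappa B match on each strand, the 2 overlapping at 97 and 96 bases before the start. The Cxcl10 window held 2 kappa B matches, 159 and 103 bases before the start, and 1 match to the interferon core 213 bases before it. The Ccl3 and Ccl6 windows held neither. Among the receptors, whose windows are not shown, Ccrl2 had 1 kappa B match 56 bases before a start and Ccr3 had 1 at 179 bases. The Cxcr2, Cxcr4 and Ccr1 windows held neither motif. Of all 32851 windows of the same length, 3.90% held a kappa B match and 2.98% held the interferon core. A match describes letters and is not evidence of binding.

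Per kilobase of exon, Ccl6 led with a mean of 82803 normalized reads over the 12 libraries, rank 9 of 11472 listed genes with a length. Cxcr2 followed with 15391 (rank 61) and Ccr1 with 9924 (rank 88), and each of these 3 was above the next gene in all 12 libraries. Ccl4 (1014), Cxcr4 (679), Cxcl2 (651) and Ccl3 (514) formed a middle group whose neighbours changed places, since Ccl4 was above Cxcr4 in 9 of 12 libraries, Cxcr4 above Cxcl2 in 9 and Cxcl2 above Ccl3 in 8. Ccrl2 (168) was below Ccl3 in 11 libraries. Ccr3 (21.4) and Cxcl10 (20.6) came last, at ranks 7701 and 7801, and Ccr3 was the higher in 6 of 12 libraries.

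**Figure D4:**
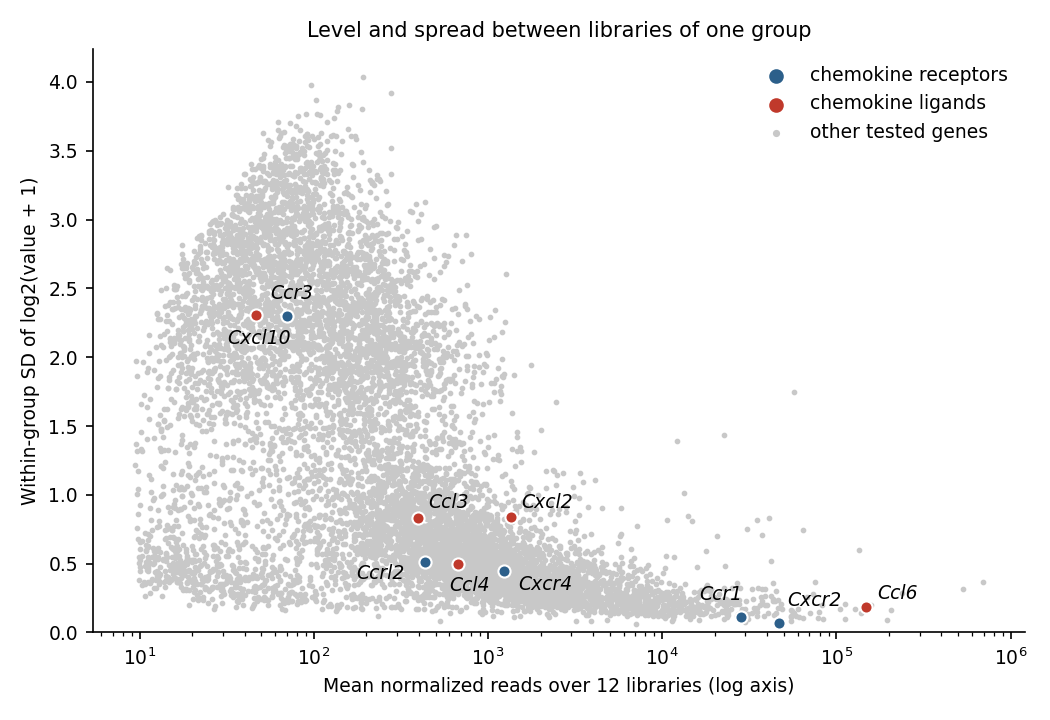
Within-group SD on the log2 scale against the mean level on a log axis, for the 10 genes and all other tested genes. Cxcr2 and Ccr1 lie at the lower edge of the spread for their level, at 0.0689 and 0.113, and Cxcl2 lies above the median of its level at 0.842.

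Pairs of the 10 genes were compared across libraries. With group means subtracted, none of the 45 pairs among the 10 genes passed Benjamini-Hochberg adjustment over the 45, by Pearson or Spearman correlation with permutation tests, and the lowest adjusted Pearson p was 0.209. Signs were near balance, with 24 pairs positive. Out of 6788 genes with a mean of 100 normalized reads or more, those most like each member of that level are named as a description of these 12 libraries. Pearson's r of the first gene ran from 0.774 for Cxcr2 to 0.937 for Ccl6. Each is the highest of 6788 values over 12 libraries, where a high r can arise by chance, and none was tested. For Ccl6 it was Stfa1, a stefin of myeloid cells, which had 4944 normalized reads in LOY 10, the library where Ccl6 was highest, and 693 to 1354 in the other LOY libraries. For Ccl3 these were Ighm, the immunoglobulin heavy chain of B cells, Apoe and Il1rn, the interleukin-1 receptor antagonist. For Cxcl2 the first was Pgam1, a glycolytic enzyme, for Cxcr4 Erp44, for Ccr1 Zfp652, for Ccl4 Ing5, for Ccrl2 Tpm3 and for Cxcr2 Zfp809.

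Other genes of the chemokine system did not pass the test either. Of 18 other chemokine receptors, 4 were listed and tested, 0 were called in either direction by limma, and all 4 had positive log2 fold changes with a median of 1.17, against 0.14 over all tested genes. Without Control 1, 2 and 12, 3 of the 4 were positive and the median was 0.36, against -0.01 over all tested genes. Cxcr5, the B cell follicle homing receptor, had 177 ± 36.5 normalized reads in LOY and 84.0 ± 48.1 in Control libraries, and Cxcr1, encoded 30538 bases from Cxcr2, had 743 ± 263 in LOY and 573 ± 313 in Control libraries (SD, n = 6 each). Cxcr3, the receptor of Cxcl10, had 88.2 to 201 normalized reads in LOY libraries and 0 to 617 in Control libraries, and its mean was 145 in LOY and 186 in Control libraries. Its log2 fold change was 2.21 ± 1.55 (SE), and without Control 1, 2 and 12 it was 0.37 ± 0.65. For Cxcr5 these values were 1.76 ± 0.92 and 0.79 ± 0.38. Of 32 other ligands, 7 were listed and 6 tested, and limma called 0 in either direction, with 5 positive and 1 negative log2 fold changes and a median of 0.41. Leaving out Control 1, 2 and 12 gave 3 positive and 3 negative and a median of 0.08. Pf4, a platelet chemokine and the 1 negative, had 220 ± 93.1 normalized reads in LOY and 414 ± 161 in Control libraries (limma adjusted p = 0.810), and the summed platelet markers, of which Pf4 is one, had 469 to 1246 in LOY and 532 to 1402 in Control libraries. The other 3 tested platelet markers had positive log2 fold changes. Among them Ppbp, also a platelet chemokine, had 265 ± 161 normalized reads in LOY and 166 ± 87.8 in Control libraries. Its log2 fold change was 0.52 ± 1.73 (SE), and without Control 1, 2 and 12 it was -0.68 ± 1.75. For Pf4 these values were -0.91 ± 0.39 and -1.21 ± 0.40. Itga2b and Gp9 stayed positive without those libraries, at 1.17 and 1.11, though the Gp9 mean was 99.3 in LOY and 159 in Control libraries. Ccl25, a gut and thymus chemokine, had 85.2 ± 84.1 in LOY and 27.1 ± 43.9 in Control libraries, and Cxcl3, a Cxcr2 ligand, had 52.2 ± 54.8 in LOY and 15.7 ± 16.3 in Control libraries. Ccl25 had a log2 fold change of 2.60 ± 1.59 (SE), and without Control 1, 2 and 12 it was -0.10 ± 1.55.

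Of 27 genes of receptor signalling and desensitisation, 24 were tested and 0 were called in either direction, with a median log2 fold change of -0.02. That median was -0.05 without Control 1, 2 and 12, against -0.01 over all tested genes. Gnai2, the inhibitory G protein subunit through which chemokine receptors signal in neutrophils and named here after its values were seen, varied widely, from 2350 to 27297 normalized reads in LOY libraries and from 2819 to 25729 in Control libraries. Plcb3, a phospholipase C, had the smallest p of this list, with 197 ± 139 normalized reads in LOY and 112 ± 125 in Control libraries (limma adjusted p = 0.823). Its log2 fold change was 2.00 ± 1.20 (SE), and without Control 1, 2 and 12 it was -0.17 ± 0.71. Pik3cg, the phosphoinositide kinase downstream of these receptors, had 3657 ± 699 in LOY and 3125 ± 966 in Control libraries, and Rgs14, a regulator of G protein signalling, had 5827 ± 1105 in LOY and 5211 ± 363 in Control libraries (SD, n = 6 each). Pik3cg had a log2 fold change of 0.26 ± 0.19 (SE), and without Control 1, 2 and 12 it was 0.50 ± 0.17. Of 7 genes of chemokine transcript turnover, limma called 0 in either direction, 2 had positive and 5 negative log2 fold changes and the median was -0.08, which was -0.26 without Control 1, 2 and 12. Zfp36l2, of the family that speeds decay of AU-rich transcripts, had 643 ± 141 normalized reads in LOY and 1061 ± 388 in Control libraries (limma adjusted p = 0.777). Its log2 fold change was -0.67 ± 0.25 (SE), and without Control 1, 2 and 12 it was -0.50 ± 0.23. Elavl1, an RNA stabiliser, had 130 ± 117 normalized reads in LOY and 232 ± 133 in Control libraries, and Zfp36l1, of the same family as Zfp36l2, had 1203 ± 280 in LOY and 994 ± 305 in Control libraries. Zfp36l1 had a log2 fold change of 0.30 ± 0.22 (SE), and without Control 1, 2 and 12 it was 0.65 ± 0.21. Of 11 genes of neutrophil ageing and homing, limma called 0 in either direction and 9 had positive log2 fold changes, where 60.9% of all tested genes were positive. The median was 0.13, against 0.14 over all tested genes. Without Control 1, 2 and 12, 9 of the 11 were positive and the median was 0.11, against -0.01 over all tested genes. Selplg, the P-selectin ligand used in rolling, had 74759 ± 9018 normalized reads in LOY and 65755 ± 4539 in Control libraries, with an adjusted limma p of 0.810. Cd44 had 25013 ± 2175 in LOY and 22867 ± 2104 in Control libraries, and the integrin gene Itgal had 18631 ± 2662 in LOY and 16763 ± 1927 in Control libraries.

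**Figure D5:**
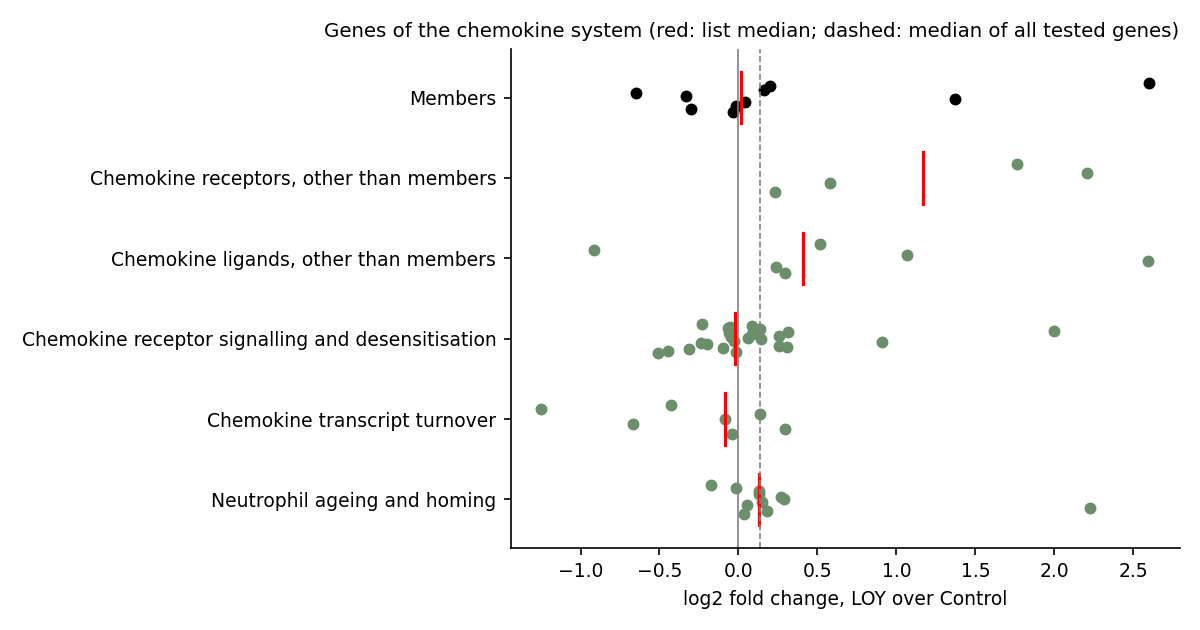
Log2 fold change of LOY over Control for the 10 genes and for the tested genes of 5 related lists (points), with list medians (red) and the median of all 9742 tested genes (dashed, 0.14). The 4 other receptors all lie right of 0, with a median of 1.17 that fell to 0.36 without Control 1, 2 and 12, and the signalling list is centred near 0.

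Lists of markers of other blood cells were summed beside these genes. Summed erythroid markers had 93439 to 627050 normalized reads in LOY libraries, highest in LOY 15, and 72357 to 142366 in Control libraries. Summed monocyte markers, 3 of 8 listed, had 11595 to 16388 in LOY and 8857 to 15121 in Control libraries, and Csf1r, which encodes CD115, the protein excluded by the sort, had 9734 to 15221 in LOY and 5850 to 11687 in Control libraries. Csf1r made up most of that sum, and Ly6c2, the other tested monocyte marker, had the opposite sign, with a mean of 1499 in LOY and 2402 in Control libraries and a log2 fold change of -0.57 ± 0.31, against 0.45 ± 0.19 for Csf1r (SE). Summed B cell markers had 142 to 2581 in LOY and 73.1 to 1844 in Control libraries, and T and NK cell markers had 89.2 to 253 in LOY and 111 to 453 in Control libraries. Hdc made up nearly all of the basophil and mast cell sum, with 20666 to 32452 normalized reads in LOY and 26212 to 36693 in Control libraries. The rest of that list was low: Mcpt8, Fcer1a, Gata2 and Ms4a2 were at 0 in 8, 8, 7 and 6 of all 12 libraries. Cpa3 was not listed, so this sum follows Hdc alone. The part of these other blood cells in the levels of Ccl3, Ccl4, Ccr3, Cxcr3 and Cxcr5 was not tested.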

How the data were processed

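Reads came from SMART-Seq v4 cDNA and Nextera XT libraries, per the labels' protocols. Builds GRCm38 and mm10, with the tools STAR 2.5.2b, Subread 1.5.2 and its featureCounts, Trimmomatic 0.36 and bcl2fastq 2.17, are listed in the submitters' processing notes. The authors deposited a normalized signal per gene and library with no unit named. In every library these values were whole multiples of 1 step, within 0.02 reads, for 100% of values, so reads per library could be recovered. The authors' log2 fold changes, p-values and adjusted p-values stand in the same deposited table. The lowest mean of a listed gene was 8.63 normalized reads.

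Testing kept genes that reached 10 in 6 or more libraries and was done with limma 3.58.1 on log2(value + 1), no covariate, Benjamini-Hochberg adjustment over all genes and a threshold of 0.05. This scale understates the change of genes that are low in all libraries, and where some libraries lie near 0 it can exceed the change in the count models, as for Ccr3 and Cxcl10. edgeR 4.0.16 and DESeq2 1.42.0 on recovered reads, other filters and scalings, and left-out libraries were alternatives. On simulated data for LOY against Control with all 11494 genes, limma recovered 25.8%, 37.3% and 77.6% of genes changed 2-, 4- and 16-fold. The changed genes were drawn from those with a mean of 50 normalized reads or more, which leaves out Cxcl10. The simulation did not copy the larger share of genes at 0 in Control 1, 2 and 12. These shares therefore do not describe genes near 0 in those libraries, such as Ccr3 and Cxcl10. Exon lengths came from GENCODE (GRCm38), which held 11472 of 11494 identifiers. The members and lists were chosen with earlier results of these data known. Named genes were all members, the 3 genes of each pathway list with the smallest p, the most abundant markers (mostly given as sums) and the most alike genes, unless said otherwise. No test was run on a list as a whole, or between Control 1, 2 and 12 and the other Control libraries.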

Additional observations from a re-analysis of the deposited data

Results flagged for a closer look

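Cxcr4 in Control 2 had 2633 normalized reads, and the nearest Control library had 1344. The gap was 0.756 of the range of the 6 Control libraries, above Dixon's value of 0.625. It was 1 of 20 groups examined (10 genes in LOY and in Control libraries), and chance marks about 1 group in 20.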

How the results depend on the processing

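None of the 10 genes was called in any of the 23 settings. Of 219 alternative values, 201 kept their direction and side of the threshold and 18 changed sign. The count of all genes called was 2 with limma, 0 with edgeR, where 286 were under 0.05 unadjusted, and 54 with DESeq2. It was 0 with limma after quantile normalization, with a mean filter of 50, with each library's zero share as a covariate and without Control 1, 2 and 12 (626, 414, 285 and 494 at an unadjusted p under 0.05), and 0 to 17 when 1 library was left out, 17 without Control 6. The log2 fold change of Ccrl2 was -0.0109 with edgeR and -0.0272 with DESeq2, that of Ccr3 was -0.00023 after quantile normalization, and that of Ccr1 was 0.0013 after TMM normalization. With the covariate it was 0.0199 for Cxcr4, 0.0857 for Ccr1, -1.21 for Ccr3 and -0.0700 for Cxcl10. Without Control 1, 2 and 12 it was 0.0170 for Cxcr4, 0.0964 for Ccr1, -1.02 for Ccr3 and -0.0316 for Cxcl10. With 1 library left out it ranged from -0.0529 to 0.0318 for Ccr1, from -0.147 to 0.168 for Ccrl2 and from -0.0589 to 0.412 for Cxcl2. Ccl4 kept a negative sign in all 23 settings and an unadjusted p under 0.05 in 13, with adjusted p from 0.473 to 1.00. The correlation of Ccr3 with Cxcl10 was 0.05 without Control 1, 2 and 12 and 0.74 with them. The median log2 fold change of all genes tested, 0.14 with limma, was 0.00062 after quantile normalization, -0.04 with the covariate, -0.01 with edgeR and without Control 1, 2 and 12, and -0.02 with DESeq2. The cause of these changes was not tested. No paired analysis was possible because the groups share no replicate number. Low levels limit Ccr3 and Cxcl10, where a few reads move the log2 values.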
